A study of Zea mays with 4 samples.

Results

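The introgressed segment of chromosome 1 is the stretch of donor DNA from 35 to 66 Mb that carries the P1-rr allele in the P1-rr near-isogenic line of maize. Its members are all peaks of the deposited lists whose midpoint lies on chromosome 1 from 35 Mb up to 66 Mb. There are 282 of the 20424 peaks of list 1 and 237 of the 14719 peaks of list 2, together 519 of 35143. Position alone chose them, so their widths, scores and spacing were not used in the choice.

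P1, or pericarp color1, encodes an R2R3-MYB transcription factor that switches on flavonoid genes and is known for the red phlobaphene pigments of the pericarp, the maternal outer layer of the kernel. Repeated backcrossing replaces a donor genome by that of the recurrent parent, but DNA linked to the selected allele stays behind as a donor block. Within such a block the lines being compared differ in many sequences besides the selected gene.

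Binding of P1 was mapped by chromatin immunoprecipitation and sequencing (ChIP-seq) with polyclonal antibodies against P1, in pericarp 14 days after pollination. The near-isogenic lines were made by crossing stock 65-CFS-305, which has P1-rr and the neighbouring gene P2 in the 4 County 63 background, 6 times to inbred A619 and selfing for 3 generations. The first group, of 2 libraries, came from the P1-rr line, in which P1 is expressed. The second group, of 2 libraries, came from the P1-ww line, in which P1 is not expressed. A619, itself P1-ww, has a non-functional P1 locus and lacks P2. List 1 holds the authors' peaks of P1-rr replicate 1 over P1-ww replicate 1, and list 2 those of P1-rr replicate 2 over P1-ww replicate 2, from biological duplicates.

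Inside the segment the P1-rr libraries carry DNA of 65-CFS-305 and the P1-ww libraries DNA of A619, while outside it, apart from a second donor piece on chromosome 6, both carry the same A619 background. A peak of the segment therefore sets P1-rr against P1-ww and donor against A619 sequence at the same time, and these cannot be told apart here. The P1-rr group rests on a single near-isogenic line. The borders were mapped by the submitters with a SNP array on build AGPv2 and are given to the nearest Mb. No label or header used here states the build of the peak lists, and the comparison takes it to be the same. In the gene table of assembly Zm-B73-REFERENCE-NAM-5.0, P1 is listed on chromosome 1 under the symbol P, between LOC118473584 and LOC118473585. Its place on the build of the lists was not used here, and no gene is assigned to a peak. The read depth is unknown, so the intervals below cover only the counting of peaks.

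No difference in peak density was detected between the segment and the rest of chromosome 1. List 1 had 282 peaks there, 9.10 per Mb (exact Poisson 95% interval 8.07 to 10.2), against 2596 peaks or 9.60 per Mb (9.24 to 9.98) outside it. List 2 had 237 peaks, 7.65 per Mb (6.70 to 8.68), against 1852 or 6.85 per Mb (6.54 to 7.17). The ratio of densities was 0.947 in list 1 (95% interval 0.802 to 1.12, two-sided quasi-Poisson regression over windows of 1 Mb, n = 31 in the segment and n = 271 outside, p = 0.52, adjusted p = 0.76). In list 2 it was 1.12 (0.946 to 1.32, n = 31 and n = 271 windows, quasi-Poisson p = 0.19, adjusted p = 0.58). Peaks covered 57.96 kb of the segment in list 1, which is 0.187% of its length against 0.198% outside, and 84.8 kb in list 2, or 0.274% against 0.256%.

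The lists lay on opposite sides of an even density, which raised the share of list 2 among all peaks. Of the 519 peaks of the segment, 45.7% came from list 2, against 41.6% of the 4448 peaks outside. The odds ratio was 1.18 (95% interval 0.981 to 1.42), and the difference did not pass the test (two-sided quasi-binomial regression over windows, p = 0.080, adjusted p = 0.58). All adjusted p-values here are Benjamini-Hochberg values over 12 tests, planned as the segment against the rest of the chromosome. For an alternative setting given below, its p took the place of the planned one among the 12. The number of alternatives tried was not adjusted for. None of the 12 reached an adjusted p of 0.05, and 0 had an unadjusted p under 0.05.

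Chromosome 1 holds 8 further complete blocks of 31 Mb in register with the segment, which give a scale for these counts. They held 253 to 375 list 1 peaks, and with 282 the segment was the sixth of 9. In list 2 they held 174 to 264, and the segment with 237 was the third. The segment thus lay inside both ranges, in the lower part for list 1 and in the upper part for list 2. The share of list 2 was 34.9% to 44.4% in the other blocks, and the 45.7% of the segment was the highest of the 9, although the test over windows did not separate it from the rest. The block next to it on the left had the lowest share, with 324 peaks in list 1 and 174 in list 2.

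**Figure D1:**
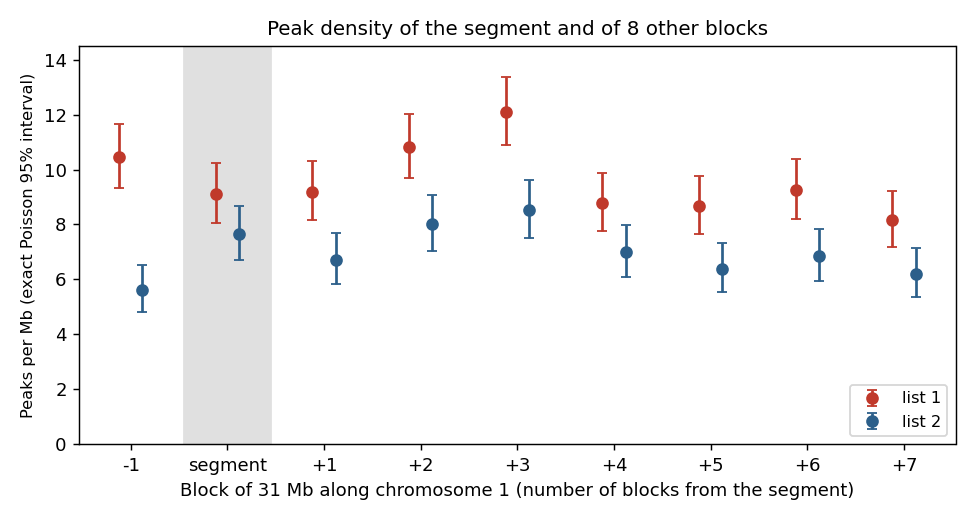
Peaks per Mb in 9 consecutive blocks of 31 Mb of chromosome 1, with list 1 in red and list 2 in blue; bars are exact Poisson 95% intervals and the shaded block is the segment. The segment lies at 9.10 per Mb in list 1 and 7.65 in list 2, inside the range of the other blocks, which is 8.16 to 12.1 and 5.61 to 8.52.

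The duplicates met at 10 places in the segment. A shared region is the union of a list 1 and a list 2 peak that overlap by at least 1 bp. Of the segment peaks, 10 of 282 in list 1 were shared, or 3.55%, where 2.23% of the whole list was shared. In list 2 these were 10 of 237, or 4.22%, against 3.08% of the whole list. Shared regions occurred at 0.323 per Mb (exact Poisson 95% interval 0.155 to 0.593), against 0.229 (0.176 to 0.294) on the rest of the chromosome. This ratio of 1.41 did not pass the test (95% interval 0.719 to 2.75, n = 31 and n = 271 windows, quasi-Poisson p = 0.32, adjusted p = 0.64). Set against the 31 Mb on either side alone, which are poor in shared regions with 4 each, the ratio was 2.50 (0.974 to 6.41, n = 31 and n = 62 windows, quasi-Poisson p = 0.057, adjusted p = 0.46). The 8 other blocks of 31 Mb held from 4 to 13 shared regions, so the segment lay within their range and these neighbours at its lower end.

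The shared regions were spread over the segment with 1 long break. From left to right, the first began at position 38228304 and the last ended at position 65083431. Distances between neighbouring regions had a median of 2.67 Mb and ran from 0.959 to 9.06 Mb. The longest break lay between the sixth region, at 50778674 to 50779177, and the seventh, at 59840541 to 59840874. Both lists had many peaks in that break, among them the 18 list 2 and 14 list 1 peaks of the window from 58 to 59 Mb.

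Most shared regions joined a 200 bp peak of list 1 to a wider peak of list 2. All 10 list 1 peaks measured 200 bp, while 8 of the 10 list 2 peaks were wider, with widths of 200 to 716 bp and a median of 391 bp. The lists themselves have this form: of all segment peaks, 269 of 282 in list 1 measured 200 bp and 163 of 237 in list 2 were wider. The regions were 234 to 788 bp long (median 440), against a median of 551.5 bp for the 62 shared regions on the rest of the chromosome. The overlap itself measured 12 to 200 bp, with a median of 163.5 bp, and the centres of the paired peaks lay 7 to 351.5 bp apart. In 4 of the 10 regions at least 50% of each peak lay in the other.

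The largest overlap as a share of both peaks was in the fifth region, at positions 47598709 to 47598942, where both peaks measured 200 bp and shared 166 bp, or 83% of each. The centres of its peaks lay 34 bp apart, against 7 bp in the first region. The scores of the fifth region were 471.53 in list 1 and 175.51 in list 2, the highest list 2 score among the 10. The score was given by the authors' peak caller, and it is set here only against other scores of the same list. The fifth region and the eighth, at 60799402 to 60800189 with scores of 375.29 and 148.96, were the only 2 of the 10 whose peaks lay above the median score of both lists. The eighth was a looser match, since its peaks of 200 and 673 bp shared 85 bp.

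The highest list 1 score of the 10 belonged to the first region, at 38228304 to 38229019. There a list 1 peak of score 829.18 lay wholly inside a list 2 peak of 716 bp that scored 43.32, among the lowest scores of list 2 in the segment. The sixth region had the same form, with a list 1 peak of score 152.6 inside a list 2 peak of 504 bp that also scored 43.32. At the other end, the last region, at 65083044 to 65083431, joined 200 bp peaks with scores of 112.54 and 150.81 that overlapped by only 12 bp.

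The remaining 5 regions had low to middling scores in list 1. The second, at 40061585 to 40062076, joined scores of 194.5 and 48.39 over 140 bp. The third, at 42730760 to 42731118, joined 237.92 and 65.82 over 191 bp, and the fourth, at 46000179 to 46000706, joined 260.9 and 66.56 over 125 bp. The seventh joined the lowest list 1 score of the 10, 74.8, to 74.99 in list 2 over 161 bp. The ninth, at 62164338 to 62164667, joined 194.5 and 168.33 over 187 bp.

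**Figure D2:**
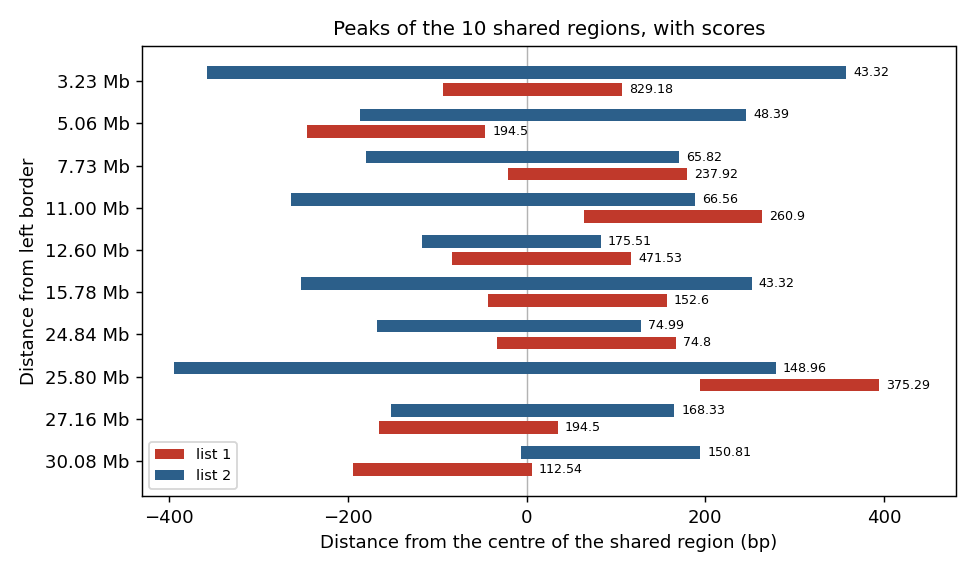
The 10 shared regions drawn to scale around their centres (horizontal axis in bp) and labelled by distance from the left border in Mb; list 1 peaks are red, list 2 peaks blue, and the number beside each bar is its score. List 1 peaks are all 200 bp wide, and 8 of the 10 list 2 peaks are wider, up to 716 bp.

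Scores of the shared peaks lay within the range of the other segment peaks. Their list 1 scores were 74.8 to 829.18 with a median of 216.21 (95% interval of the median 112.54 to 471.53), where all segment peaks of the list had a median of 237.92. Their list 2 scores were 43.32 to 175.51 with a median of 70.78 (43.32 to 168.33), against 70.05 for all. Of the 13 list 1 peaks with the segment's top score of 3100, 0 overlapped a list 2 peak, where 3.55% of all its list 1 peaks did. At that share, 13 peaks are too few to show a difference.

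Beyond overlap, further peaks of the duplicates lay close together. A total of 4 pairs lay within 500 bp of each other without touching, all between positions 38056470 and 40062328, with gaps of 52 to 349 bp. Overlapping peaks included, 14 list 1 peaks or 4.96% lay within 500 bp of list 2, where 4.04% of the whole list did, and 13 list 2 peaks or 5.49% lay within 500 bp of list 1, where 5.56% did. Of the list 1 peaks of the segment, 30 or 10.6% (95% Wilson interval 7.55 to 14.8) had a list 2 centre within 2 kb, against 6.70% (5.80 to 7.73) on the rest of the chromosome and 6.81% in the whole list. Of the list 2 peaks, 27 or 11.4% (7.95 to 16.1) had a list 1 centre within 2 kb, against 9.23% (8.00 to 10.6) and 9.32%. These comparisons were chosen after the values were seen. In the regression over windows the odds ratio was 1.66 in list 1 (1.09 to 2.52, quasi-binomial p = 0.019, adjusted p = 0.22) and 1.26 in list 2 (0.820 to 1.95, quasi-binomial p = 0.29, adjusted p = 0.54), and neither passed after adjustment.

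Within the segment the peaks were uneven, and the full and empty places of the lists matched only in part. Every one of the 31 windows of 1 Mb held peaks of both lists, from 3 to 21 in list 1 (median 9) and from 2 to 18 in list 2 (median 8). The variance of these counts was 1.74 times the mean in list 1 and 1.88 times in list 2, against 1.84 and 1.45 in 270 complete windows outside. Counts of the lists tended to rise and fall together over the 31 windows, with Pearson's r of 0.59 and Spearman's rho of 0.48. Outside the segment r was 0.38 and rho 0.42. Without the fullest window of the segment r was 0.48. These describe windows along 1 chromosome, which share libraries and neighbours and are not independent.

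The fullest window of the segment ran from 50 to 51 Mb. It held 21 list 1 peaks and 16 list 2 peaks, and their sum of 37 was the highest of the 301 complete windows of chromosome 1. Over the 2053 complete windows of all 10 chromosomes its rank was 10, tied with 8 others, and the highest sum was 43. All 21 list 1 peaks were 200 bp wide, and their scores ran from 74.8 to 3100 with a median of 237.92, the median of the whole segment. The 16 list 2 peaks scored 40.19 to 178.69, with a median of 64.33. The window stood out by the number of its peaks and not by their scores.

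A second crowded stretch ran from 58 to 61 Mb. There list 1 had 37 peaks, 12.3 per Mb (exact Poisson 95% interval 8.68 to 17.0), and list 2 had 39, or 13.0 per Mb (9.24 to 17.8). The window from 58 to 59 Mb held 18 list 2 peaks, the most of any complete window of chromosome 1 in that list, beside 14 of list 1. Scores were higher here than in the window at 50 Mb: 11 of the 18 list 2 peaks and 9 of the 14 list 1 peaks lay above the median of their list, against 6 of 16 and 7 of 21. No shared region fell in the window from 58 to 59 Mb.

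Sparse stretches also matched in part. From 43 to 46 Mb list 1 had 13 peaks, 4.33 per Mb (2.31 to 7.41), and list 2 had 11, or 3.67 per Mb (1.83 to 6.56). The emptiest window of both lists, from 43 to 44 Mb, held 3 and 2 peaks; list 1 also had 3 from 54 to 55 Mb, and list 2 also 2 from 63 to 64 Mb. The lists parted from 51 to 56 Mb, to the right of the fullest window. There list 2 fell to 19 peaks, 3.80 per Mb (2.29 to 5.93), while list 1 had 40, or 8.00 per Mb (5.72 to 10.9). These stretches were picked after the counts were seen, and no test was run on them.

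At a finer scale much of the segment held no peak. Of 310 bins of 100 kb, 142 or 45.8% were empty in list 1, 160 or 51.6% in list 2, and 84 or 27.1% in both. With so many bins empty in each list, many are empty in both without any link between the lists. Whether 84 is more than that was not tested. The fullest bins held 8 peaks, 4 of each list, and there were 2 of them. The first, from position 38200001 to 38300000, held a group of 4 list 1 peaks with scores above the median of the list, at 38218626, 38223806, 38228569 and 38235169. Their scores were 1665.67, 471.53, 829.18 and 1265.97. Some 4.67 kb from the first of these lay the highest-scoring list 2 peak of the segment, at 38213949 to 38214159 with a score of 404.3. The same bin held the first shared region and another pair of peaks only 221 bp apart. The second such bin, from position 50700001 to 50800000, held list 1 scores of 1322.18, 282.63, 3100 and 152.6, beside list 2 scores of 131.6, 43.32, 43.32 and 44.45.

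Spacing within a list ran over more than 3 orders of magnitude. In list 1 the 281 distances between neighbouring centres had a median of 62.8 kb (95% interval 54.8 to 76.4), against 57.4 kb (53.8 to 61.2) on the rest of the chromosome, and a mean of 109 kb. In list 2 the 236 distances had a median of 72.9 kb (57.1 to 88.8), against 89.3 kb (82.6 to 94.7), and a mean of 130.3 kb. Medians below the means go with many short and a few long distances.

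For close neighbours no difference from the rest of the chromosome was detected. Distances under 10 kb numbered 36 in list 1, or 12.8% (95% Wilson interval 9.40 to 17.2), where the whole list had 14.1%. In list 2 there were 31, or 13.1% (9.41 to 18.0), where the whole list had 11%. Set against the rest of the chromosome the odds ratios were 0.900 (95% interval 0.623 to 1.30, quasi-binomial p = 0.57, adjusted p = 0.76) in list 1 and 1.32 (0.875 to 1.98, quasi-binomial p = 0.19, adjusted p = 0.58) in list 2. Joined by such distances, 63 list 1 peaks formed 27 groups of up to 4 peaks, and 58 list 2 peaks formed 27 groups of up to 3.

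**Figure D3:**
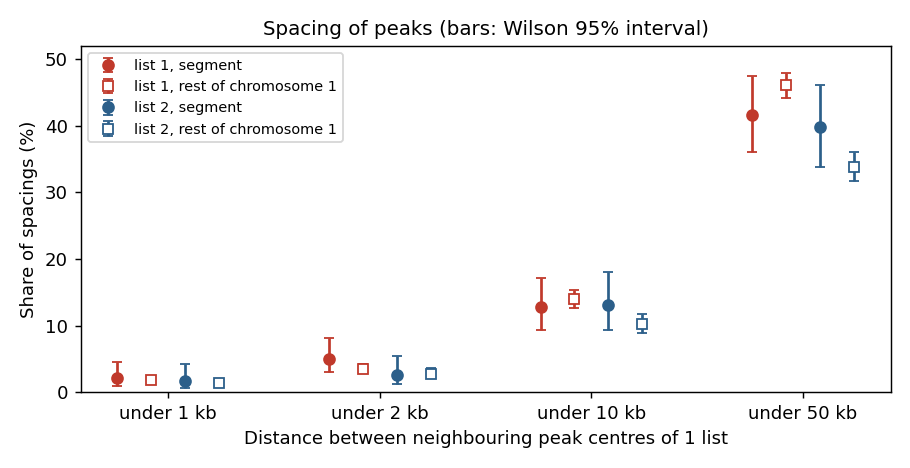
Share of distances between neighbouring peak centres (vertical axis, percent) that fall under 1, 2, 10 and 50 kb, for the segment (filled circles) and the rest of chromosome 1 (open squares); bars are Wilson 95% intervals. Under 10 kb the segment lies at 12.8% in list 1 and 13.1% in list 2, against 14.0% and 10.3% outside.

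The shortest distances joined separate peaks less than 1 kb apart. In list 1 the closest centres were 430 bp apart, between peaks at 35951830 to 35952059 and 35952275 to 35952474 with scores of 305.42 and 152.6. The next were 435 bp apart from 58339325, with scores of 471.53 and 423.01, and 461 bp apart from 37219073, with scores of 724.22 and 2500.96. In list 2 the closest were 621.5 bp apart from 60798994, with scores of 195.17 and 148.96, where the right-hand peak is that of the eighth shared region. Distances of 667.5 bp from 61287509 (scores of 215.36 and 66.62) and of 781 bp from 55337555 (116.93 in both) followed.

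The longest empty stretches of one list usually held peaks of the other. List 1 had none over 880 kb from position 54277228 to 55157480, where list 2 had 2. Its next longest distances were 601 kb from 51328799, with 3 list 2 peaks inside, and 518 kb from 44010595, with 2. List 2 was empty over 882 kb from 42810840 to 43692553, where list 1 had 4 peaks. It was empty again for 775 kb from 52479915, where list 1 had 9, and for 748 kb from 62942336, where list 1 had 5.

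List 1 had peaks on both sides of each border in similar numbers. At the left border list 1 had 9 peaks in the first Mb inside and 7 in the last Mb outside, and 45 and 44 over 5 Mb. At the right border it had 7 inside and 8 outside, and 40 and 32 over 5 Mb. The last list 1 peak before the left border was at 34996832 to 34997031 with a score of 375.29. The first after it was at 35045020 to 35045219 with a score of 672.49. The last before the right border was at 65679143 (1899.93) and the first beyond at 66173771 (194.5).

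List 2 behaved otherwise at the left border. It had 0 peaks in the last Mb outside (exact Poisson upper limit 3.69 per Mb) and 9 in the first Mb inside (4.12 to 17.1). Over 2 Mb it had 4 outside and 17 inside, and over 5 Mb 28 and 44. The distance across the border, from a peak at 33881934 (score 56.42) to one at 35194107 (score 47.38), was 1312 kb, the longest of the 2088 of list 2 on chromosome 1 and the seventh longest of 14637 over the 10 chromosomes. List 1 had 10 peaks in that stretch, so the gap was seen in 1 duplicate and not in the other. At the right border list 2 had 11 peaks inside and 9 outside within 1 Mb, and the peaks next to it were at 65948605 (222.87) and 66164660 (299.46). The stretch at the left border was picked after its values were seen, and no test was run on it.

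Each list kept its own shape of peak in the segment. In list 1, 269 of 282 peaks were exactly 200 bp wide, or 95.4% (95% Wilson interval 92.3 to 97.3), where the whole list had 95.5%. In list 2 these were 74 of 237, or 31.2% (25.7 to 37.4), where the whole list had 29.8%. The odds ratios against the rest of the chromosome were 0.959 (95% interval 0.520 to 1.77, quasi-binomial p = 0.89, adjusted p = 0.93) and 1.07 (0.793 to 1.44, quasi-binomial p = 0.66, adjusted p = 0.79). The median width in list 2 was 319 bp (interquartile range 200 to 496), against 338 bp outside.

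Only 13 list 1 peaks of the segment were wider than 200 bp. The widest measured 533 bp, at 63914819 to 63915351, and scored 122.45. Then came 451 bp at 58108229 (252.88), 388 bp at 36252117 (112.54), 386 bp at 47688518 (3100) and 372 bp at 65656529 (724.22). One of the others, 290 bp wide at 42292757 with a score of 1607.73, lay 6.47 kb from the second-highest list 2 score of the segment. In list 2 the widest peaks measured 769 bp at 37612840, 768 bp at 65090327, 755 bp at 38057019, 747 bp at 60618026 and 734 bp at 54073429. Their scores were low, at 43.32, 53.42, 43.33, 43.95 and 54.54.

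Width and score went in opposite directions in list 2. The 74 peaks of 200 bp had a median score of 139.14 (95% interval 116.93 to 150.81), against 55.17 (52.07 to 60.16) for the 163 wider ones. By class of width the median fell from 97.99 at 201 to 300 bp to 59.25 at 301 to 400 bp, 50.73 at 401 to 500 bp and 47.34 above that. Spearman's rho of width and score was -0.74 over the 237 peaks and -0.64 on the rest of the chromosome, a description across peaks that share their libraries. In list 1, with nearly all peaks at 1 width, rho was 0.03.

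**Figure D4:**
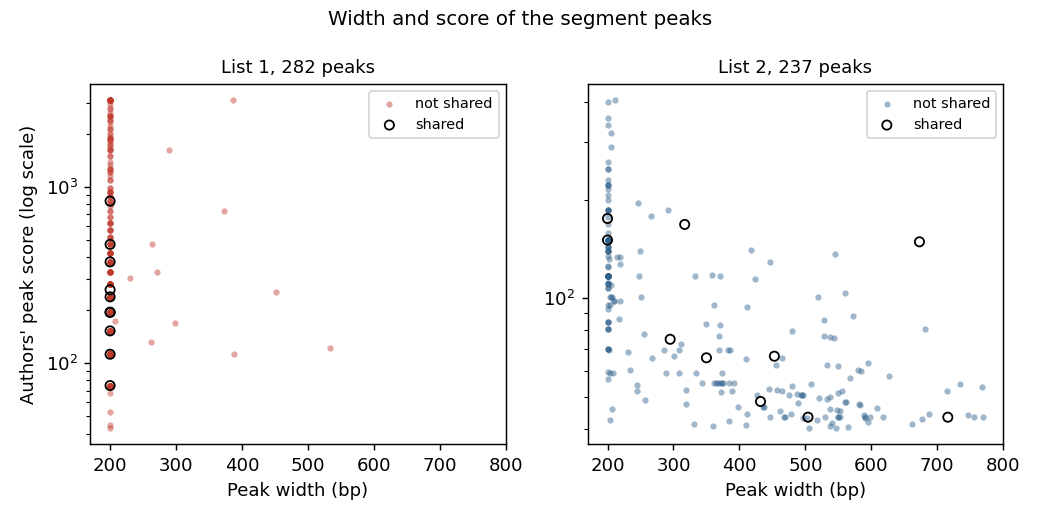
Peak width in bp against the authors' score on a log scale for the 282 list 1 peaks (left, red) and 237 list 2 peaks (right, blue) of the segment; open black circles mark the peaks of shared regions. List 1 stands as a column at 200 bp, while list 2 scores fall from a median of 139.14 at 200 bp to 47.34 above 500 bp.

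For scores, too, no difference from the rest of the chromosome was detected. In list 1 they ran from 43.08 to 3100 with a median of 237.92 (95% interval 237.92 to 282.63), against 282.63 on the rest of the chromosome. The values fell on few steps, with 61 distinct scores for 282 peaks, so a shift by 1 step changes the median. A total of 122 list 1 peaks, or 43.3% (95% Wilson interval 37.6 to 49.1), scored above the list's median of 282.63, where 46.3% of the whole list did. The odds ratio against the rest of the chromosome was 0.827 (0.645 to 1.06, quasi-binomial p = 0.14, adjusted p = 0.58). In list 2 scores ran from 40.19 to 404.3 with a median of 70.05 (63.26 to 84.93), and 118 peaks or 49.8% (43.5 to 56.1) lay above the list's median, where 49.1% of the whole list did. Its odds ratio was 0.987 (0.736 to 1.33, quasi-binomial p = 0.93, adjusted p = 0.93).

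The highest list 1 score of the segment, 3100, was tied over 13 of its peaks, or 4.61%, where 4.56% of the whole list had it. It was not the highest of the whole list, which reached 3213.38. These 13 peaks lay from 35.3 to 63.2 Mb, and 5 of the 13 fell between 46 and 51 Mb. That stretch, picked after the values were seen, held 65 or 23.0% of all list 1 peaks of the segment. With 13 peaks no clustering can be read from this, and none was tested. In order of position they began at 35333458, 44529637, 45846903, 46384603, 47688518, 47998155, 49796194, 50764427, 52603630, 59770095, 60638051, 63050607 and 63220224. All but the one at 47688518 were 200 bp wide. That peak was also the nearest of the 13 to a list 2 peak, with centres 1.21 kb apart, and the next nearest, at 49796194, was 2.36 kb from one.

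The 5 highest list 2 scores of the segment belonged to narrow peaks. After the 404.3 at 38213949 came 399.83 at 42299268, 354.99 at 35490674, 339.14 at 42455369 and 319.98 at 62942336, with widths of 200 to 211 bp. Ranked over the whole of list 2 they stood 134th to 281st. The 3 highest had a list 1 centre 4.67, 6.47 and 1.47 kb away, with list 1 scores of 1665.67, 1607.73 and 282.63. The nearest list 1 centres of the other 2 were 65.4 and 54.3 kb away. Of all 237 list 2 peaks of the segment, 71 or 30.0% had a list 1 centre within 10 kb, against 26.7% on the rest of the chromosome. Whether high scores go with closer list 1 peaks was not tested.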

How the data were processed

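The 4 ChIP-seq libraries of maize pericarp, 2 of P1-rr and 2 of P1-ww, were represented by 2 peak lists, each made by the authors from libraries of the same number and not from pooled duplicates, per the labels. The submitters' processing notes name CASAVA 1.4 and Bowtie, and the names of the peaks carry the word MACS. Its settings and the genome build of the lists are not stated in any label or header used here. Each peak has a score from that caller, deposited by the authors on a scale the files do not state. Starts, which the lists count from 0, are printed 1-based. All value columns were mapped, so 0 were left out.

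The extent of chromosome 1 was its largest peak end, 301295526. Densities were compared by quasi-Poisson and shares by quasi-binomial regression over windows of 1 Mb, with the dispersion estimated over windows and not taken below 1. Windows stand for sequence, not for plants, so the p-values do not cover the spread between further plants. The floor on the dispersion was set after a first fit had been seen. Intervals of counts are exact Poisson, of shares Wilson, and of medians from order statistics, all at 95%. Regions were named by rule: all shared regions, the highest-scoring and widest peaks, extreme distances, fullest and emptiest windows, and peaks next to the borders. Members, rules and tests were chosen with earlier results of these data known. The regressions and the overlap search were tested on simulated data. No sequence was printed, because no genome of the lists' build was used here. Work used Python 3.11.15, numpy 2.4.6, pandas 2.3.3, scipy 1.17.1 and matplotlib 3.10.9.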

Additional observations from a re-analysis of the deposited data

How the results depend on the processing

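A total of 79 alternative values was computed for the 12 tests and for the mean density ratio. Of these, 71 kept their direction and side of the threshold or, for that mean, moved by less than the SD of the lists. Leaving out either list always moves the mean by less than that SD, so its values say nothing on stability. Other window sizes and the exact test reuse the same counts, so their ratios could not change direction. The count of 71 therefore overstates how far the results were tried. The other 8 of the 79 alternatives crossed a ratio of 1 without passing the test, and the cause was not tested. The odds ratio of 200 bp peaks turned to 1.03 (31 Mb on either side) and 1.09 (borders moved inward by 1 Mb) in list 1, and to 0.928 (borders moved inward) in list 2. That of list 2 scores turned to 1.06 (31 Mb on either side), 1.03 (all chromosomes) and 1.05 (highest-scoring 10%). That of close neighbours, taken as under 2 kb, turned to 1.44 in list 1 and 0.899 in list 2. The mean density ratio of the lists, 1.03, was 1.12 without replicate 1 and 0.947 without replicate 2. An unadjusted p under 0.05 came from 4 alternatives. They were list 2 density (1.24), the share of list 2 (1.34) and list 1 overlap (odds ratio 2.76), each against 31 Mb on either side, and list 1 centres within 2 kb (1.66), chosen after seeing the data. In that order the adjusted p-values were 0.48 (quasi-Poisson), 0.20, 0.44 and 0.22 (quasi-binomial), so none passed. The first 3 share 1 background and are not separate results. Its left block had the fewest list 2 peaks of the 9 blocks, 174. For list 2 overlap the odds ratio against 31 Mb on either side was 2.06, and the ratio of shared regions with 50% of both peaks overlapping was 2.33, from 4 regions. No paired analysis was possible because the files hold no value per library, only peaks of each P1-rr and P1-ww pair. With 10 shared regions, the interval of their ratio spans 0.719 to 2.75, so a ratio of 2 lies within it.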

Other observations

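The steps of the score were filled unevenly. In list 1 the commonest score of the segment was 74.8, held by 34 peaks or 12.1%, against 8.05% of the peaks on the rest of chromosome 1. In list 2 it was 116.93, held by 17 peaks or 7.17%, against 3.56%. Other common steps of list 1 went the other way, such as 112.54, at 9.22% against 10.5%. These values were picked after they were seen and no test was run on them.

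The largest groups of peaks with neighbouring centres under 10 kb apart were both in list 1 and held 4 peaks each. The first spanned 16.7 kb from position 38218626, with scores of 471.53 to 1665.67. The second spanned 9.45 kb from position 59832271, with scores of 74.8 to 282.63, and held the seventh shared region.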
